A study of Homo sapiens with 7 samples.

Results

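The genes of heme breakdown and of cellular iron storage were followed in HT1080, a long-established cell line from a human fibrosarcoma. They are the heme oxygenases HMOX1 and HMOX2, the biliverdin reductases BLVRA and BLVRB, the ferritin chains FTL and FTH1, the transferrin receptor TFRC, the iron exporter SLC40A1 and the repressor BACH1. All probe sets that the platform annotation gives to a single one of these genes were taken, which left 21 of the 41097 single-gene probe sets on the array, for 8 of the 9 genes. No probe set was assigned to FTH1 in the annotation used here, and FTH1 was not analysed here. Another 3 probe sets that name BACH1 together with other genes were left out by the same rule.

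The study exposed HT1080 cultures to plant polyphenols or to serum and measured total RNA on 7 arrays, with 1 array in each group. The compound cultures received catechin (11.25 ng/ml), epicatechin (6.25 ng/ml), taxifolin (6.25 ng/ml) or resveratrol (2195 ng/ml) for 2 h. The serum cultures received 5% pycnogenol-positive serum or 5% control serum, also for 2 h, and the reference culture was untreated, with no time given for it. All cultures were HT1080 cells with no genetic change named in the labels. Pycnogenol is an extract of pine bark, and pycnogenol-positive serum is taken here as the labels name it. The labels do not give the number of serum donors, the solvent of the compounds, or whether the untreated culture had a medium change, so these steps cannot be told apart from the treatments. There were no replicates, so the size of a replicate error is unknown and every value below describes single arrays.

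Heme oxygenases open the heme ring and release biliverdin, carbon monoxide and iron, and biliverdin reductases turn biliverdin into bilirubin. The freed iron is stored in ferritin or leaves the cell through ferroportin, the product of SLC40A1, while TFRC brings in iron bound to transferrin. When iron is scarce, iron regulatory proteins stabilise the TFRC mRNA and hold back translation of the ferritin mRNAs, so ferritin protein can change without its mRNA. BACH1 represses HMOX1 until heme binds to it and removes it from DNA, and NRF2 then activates the gene.

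The values are MAS5 signals on a linear scale, and differences are given as log2 of the first array's signal minus log2 of the second's. A probe set counted as above the signal filter when its mean log2 signal reached the median of all genes, a signal of 269. Of the 21 probe sets 13 did so, for 7 genes. Those 13 carry the counts below. The other 8 had signals of 3.87 to 158 on all 7 arrays, and no detection calls were at hand to show that they were above background. Both SLC40A1 probe sets were among them, so the exporter had no level to compare. The labelled cell type was checked with 8 mesenchymal markers, all above 269 on every array, among them VIM with 46701 to 50229. Markers of white blood cells, iron-recycling macrophages, epithelium and endothelium lay below 269 on all 7 arrays. Of 4 measured red blood cell markers only HBB passed that level, with 522 and 382 under pycnogenol serum and control serum against 227 in the untreated culture. HBB also lay at 299 to 413 with the 4 compounds, and the part of this in the results was not tested. Summed over the 4 markers the signal was 691 and 498 with these sera against 434 to 599 on the other 5 arrays. The 3 measured liver markers summed to 373 with pycnogenol serum and 248 with control serum against 167 to 371 on the others, and TTR alone passed 269, at 337 with pycnogenol serum.

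HMOX1, the inducible heme oxygenase, was higher by more than 2-fold with both sera, and with none of the 4 compounds did it differ by 2-fold in either direction. Its probe set read 5155 with pycnogenol serum and 5892 with control serum, against 1801 in the untreated culture. With catechin, epicatechin, taxifolin and resveratrol it read 1883, 1814, 2015 and 1436. Both serum values thus lay far above all 5 arrays without test serum, whose highest value was 1.40 times the lowest. In RNA from a whole culture, more cells expressing a gene and more of its RNA per cell cannot be told apart.

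Control serum gave HMOX1 a log2 difference of 1.71 from the untreated culture, a 3.27-fold higher signal, and pycnogenol serum one of 1.52. Among the 9888 genes above the filter that difference with control serum had rank 4 from the top. The 4 compounds stood at 0.06, 0.01, 0.16 and -0.33 from the untreated culture, in the order above. Pycnogenol serum differed from control serum by -0.19, where the SD of that difference over all probe sets above the filter was 0.302. HMOX1 is read from a single probe set on this array, so no further probe set could be set beside it.

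**Figure D1:**
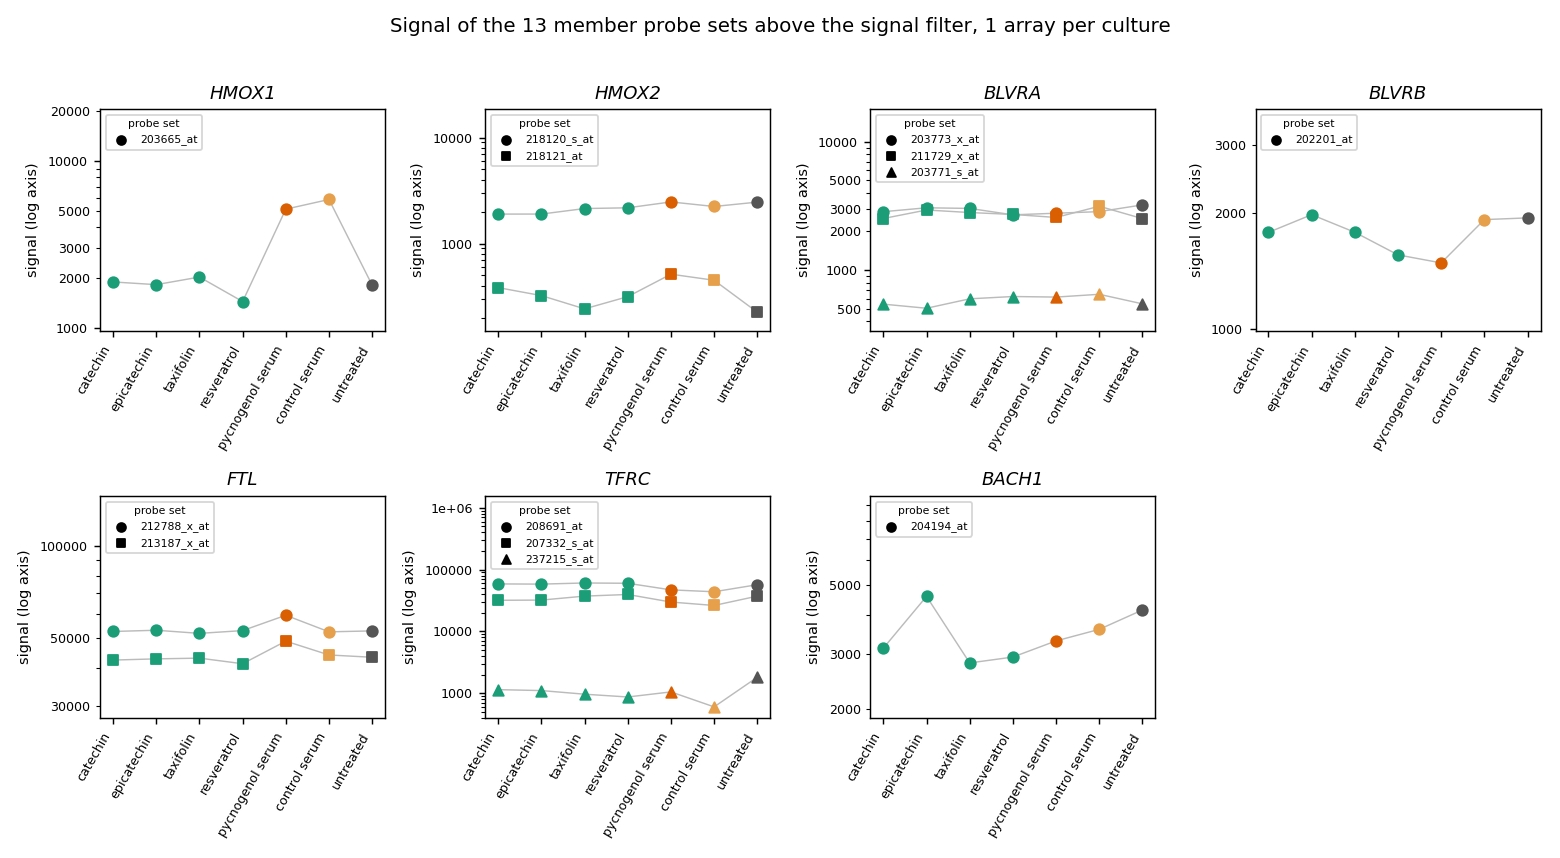
Signal of each of the 13 member probe sets above the filter (log axis, arbitrary units) on the 7 arrays, with 1 point per array, a panel per gene, a marker shape per probe set and thin lines only to guide the eye. HMOX1 reads 5155 and 5892 with pycnogenol serum and control serum and at most 2015 on the other 5 arrays, and the upper pair of TFRC probe sets is lowest on the serum arrays.

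HMOX2 encodes the heme oxygenase that most cells make constantly, and its probe sets disagreed. The brighter one, 218120_s_at, read 2472 and 2239 with pycnogenol serum and control serum, against 2462 in the untreated culture and 1898 to 2176 with the 4 compounds. Its log2 difference between control serum and the untreated culture was -0.14. The dimmer one, 218121_at, read 514 and 451 with the same sera, against 225 in the untreated culture. With the compounds it read 384 (catechin), 323 (epicatechin), 242 (taxifolin) and 316 (resveratrol). Its log2 difference with control serum was 1.001, which only just reaches 2-fold and rests on an untreated signal under 269. The untreated array was thus the lowest of all 7 on this probe set, and the serum arrays were the highest.

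TFRC, the receptor that takes up transferrin-bound iron, was lower with both sera on its 2 brightest probe sets. The first, 208691_at, read 47007 with pycnogenol serum and 43803 with control serum, against 57018 in the untreated culture. The compounds gave 58678 (catechin), 58258 (epicatechin), 60758 (taxifolin) and 60109 (resveratrol), so the serum values lay below all 5 others, which themselves spanned only 1.07-fold. The second, 207332_s_at, read 29847 and 26279 with the sera, against 37208 in the untreated culture and 31870 to 39572 with the compounds, again without overlap.

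These TFRC differences were small. With control serum they were -0.38 and -0.50 on the log2 scale, and with pycnogenol serum against the untreated culture -0.28 and -0.32. Of all genes above the filter, 11.6% were at least as low as the first value with control serum. Both probe sets read close to the top of the array's range, where the highest signal of any probe set was 69931 to 76843, and saturation flags were not part of the values used here.

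The remaining TFRC probe set above the filter, 237215_s_at, was far dimmer and varied more. It read 1047 and 599 with pycnogenol serum and control serum, against 1809 in the untreated culture, and 1139, 1100, 961 and 866 with catechin, epicatechin, taxifolin and resveratrol. The untreated array was the highest here and the serum values overlapped those of the compounds. Its differences from the untreated culture were -0.67, -0.72, -0.91 and -1.06 for the 4 compounds in that order and -1.59 for control serum, where the brighter TFRC probe sets lay between -0.22 and 0.09 for the compounds. Comparisons with the untreated array share it, and 20.0% of all probe sets above the filter had the untreated signal above all 4 compounds. The upper pair of probe sets with lower signals in serum and this one with lower signals in every treated culture therefore give different patterns for the same gene.

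The start of the TFRC gene is shown beside that of FTL, since the first differed with serum on both bright probe sets and the second hardly moved. The promoter set used here comes from RefSeq, build GRCh38.p14, and has no entry for HMOX1 or FTH1. It holds 10 promoters for 7 of the 9 genes. Each sequence shown holds the 250 bases that end just before the start site, from the gene's own strand. TFRC lies on the minus strand at chr3:196082091-196082340 and FTL on the plus strand at chr19:48965059-48965308. Capitals mark the hits to the 4 motifs searched on both strands. The hypoxia response core was spelled ACGTG and the antioxidant response element TGACNNNGC. The site of the dimeric factor AP-1 was spelled TGAGTCA. The TATA box, where transcription machinery assembles, was spelled TATAAA.
TFRC: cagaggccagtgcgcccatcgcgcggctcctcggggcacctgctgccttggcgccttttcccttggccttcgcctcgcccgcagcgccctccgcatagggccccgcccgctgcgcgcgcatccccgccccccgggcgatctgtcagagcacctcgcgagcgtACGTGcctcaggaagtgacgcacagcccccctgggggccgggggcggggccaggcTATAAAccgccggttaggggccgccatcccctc
FTL: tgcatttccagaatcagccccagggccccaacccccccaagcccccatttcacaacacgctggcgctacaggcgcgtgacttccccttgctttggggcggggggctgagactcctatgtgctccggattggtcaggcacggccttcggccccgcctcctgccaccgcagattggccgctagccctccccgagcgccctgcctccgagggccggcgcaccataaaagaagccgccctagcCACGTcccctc
TFRC holds ACGTG starting 88 bases before the start site and TATAAA starting 33 bases before it. FTL holds ACGTG on the other strand, from a first base lying 11 bases before its start site. Of 35116 promoters of this length, 18.5% hold ACGTG, 10.9% the antioxidant response element, 4.20% the AP-1 site and 10.7% the TATA box, with no overlap between motifs in the stretches shown. Neither stretch has a match to the antioxidant response element or the AP-1 site, which says only that these letters are not in this window.

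FTL, the light chain of ferritin and the storage side of the pathway, had the smallest spread of the 13 probe sets over the 7 arrays, at 0.20 and 0.24 on the log2 scale between the highest and lowest array. Its probe set 212788_x_at read 59376 with pycnogenol serum and 52436 with control serum, against 52802 in the untreated culture and 51830 to 53063 with the compounds. The other, 213187_x_at, read 48894 and 44075 with the sera, against 43322 in the untreated culture and 41272 to 43042 with the compounds. On both probe sets the pycnogenol serum array stood highest, with log2 differences of 0.18 and 0.15 from control serum, and the other 6 arrays lay close together. Both differences are below the SD of 0.302 over all probe sets in that comparison, but that SD takes in much dimmer probe sets. On the FTL probe sets the 5 arrays without test serum spanned only 1.02-fold and 1.05-fold. These signals too lie near the top of the array's range.

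On the probe sets above the filter, biliverdin reductases showed no difference of 2-fold in any comparison. BLVRA, which acts on the main form of biliverdin from heme oxygenase, read 2775 and 2855 with pycnogenol serum and control serum on its brightest probe set, against 3222 in the untreated culture. The compounds gave 2696 to 3059 on it, so all 6 treated arrays lay below the untreated one. These comparisons share the untreated array, which lay above all 4 compounds on 20.0% of all probe sets above the filter. The probe sets 211729_x_at and 203771_s_at ran the other way with control serum, at 0.32 and 0.25 on the log2 scale against -0.17 for the brightest, so BLVRA had no common direction. BLVRB, also known as flavin reductase, read 1485 with pycnogenol serum and 1922 with control serum, a log2 difference of -0.37. It read 1942 in the untreated culture and 1558 to 1980 with the compounds, so the pycnogenol serum value was the lowest of the 7 but close to resveratrol at 1558.

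BACH1, the heme-binding repressor of HMOX1, was lower than in the untreated culture on 5 of the 6 other arrays, but its serum values did not stand apart. Its probe set 204194_at read 3298 and 3592 with pycnogenol serum and control serum, against 4145 in the untreated culture. It read 3125 with catechin, 4583 with epicatechin, 2802 with taxifolin and 2926 with resveratrol. Epicatechin therefore gave the highest value of the 7 and taxifolin the lowest, and both serum values lay within the range of the compounds. Against the mean of the 5 arrays without test serum, control serum differed by 0.06. The differences from the untreated culture were -0.33 for pycnogenol serum, -0.21 for control serum and -0.41, 0.15, -0.56 and -0.50 for the compounds in the order just given, none at 2-fold.

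Counted over the 13 probe sets, few members passed 2-fold in any comparison. Catechin, epicatechin and taxifolin gave 0 each, where 0.561%, 0.442% and 0.583% of all 17655 probe sets above the filter did so. Resveratrol gave 1, TFRC 237215_s_at, against a background of 1.08%. Control serum gave 3, namely HMOX1 and HMOX2 218121_at higher and TFRC 237215_s_at lower, against a background of 1.49%, with 0.430% of all probe sets higher and 1.06% lower. Pycnogenol serum against control serum gave 0, with a background of 0.810%. No test was possible with 1 array a group, so these are counts of a size.

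**Figure D2:**
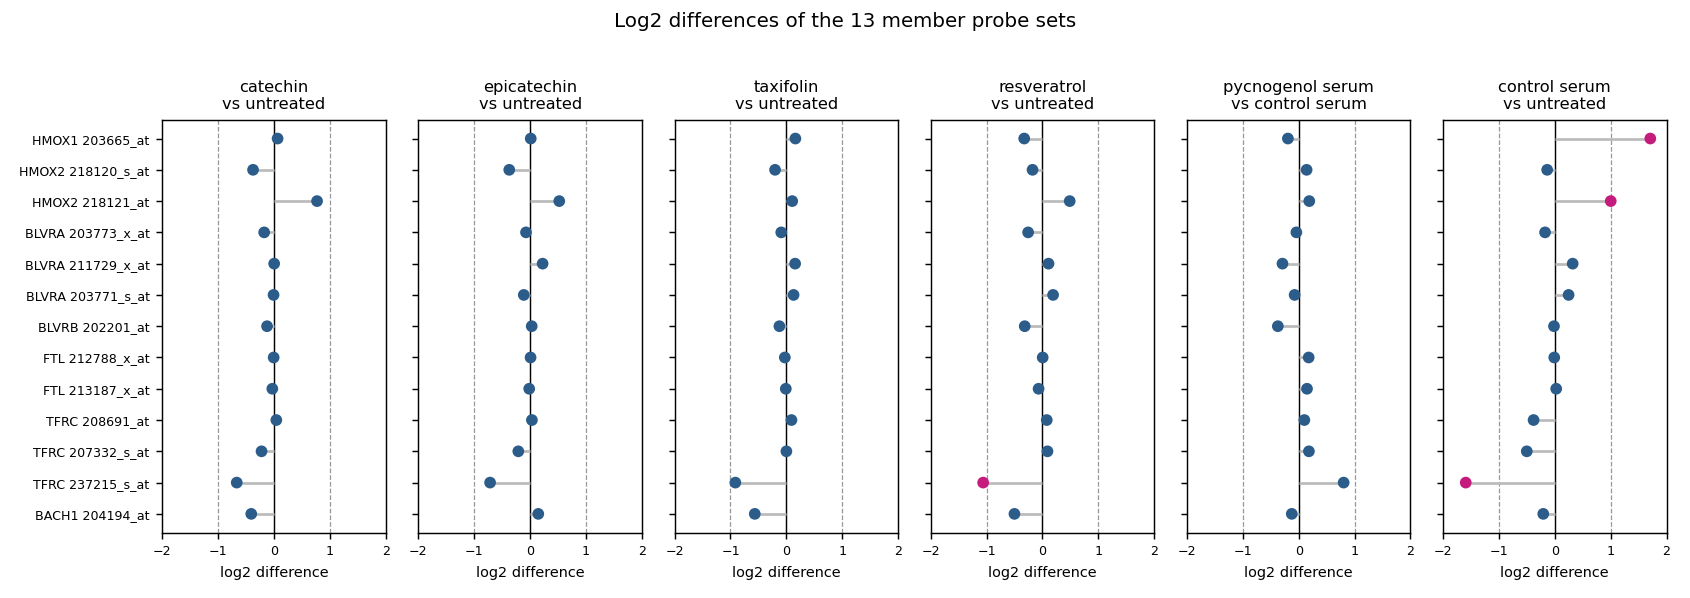
Log2 difference of each of the 13 member probe sets in the 6 comparisons, first-named array minus second, with dashed lines at 2-fold and points at or past it in magenta. Control serum has 3 such points, resveratrol 1 and the other 4 comparisons 0.

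The median difference of the 13 probe sets, which count some genes more than once, was set beside that of all probe sets. It was -0.03 with catechin, 0.01 with epicatechin, -0.01 with taxifolin and -0.07 with resveratrol, where all probe sets had 0.01, 0.00050, 0.01 and 0.01. With control serum the members' median was -0.01, as was that of all probe sets, while single members ran from -1.59 for TFRC 237215_s_at to 1.71 for HMOX1. Between pycnogenol serum and control serum it was 0.10, against 0.0043 for all. With each of the 7 genes read once, from its brightest probe set, the medians lay further from those of all genes in some comparisons. They were -0.12 with catechin, 0.01 with epicatechin, -0.09 with taxifolin and -0.26 with resveratrol, where all genes had 0.04, 0.03, 0.03 and 0.03. For control serum the gene median was -0.14 against 0.0076, and for pycnogenol serum against control serum -0.04 against 0.0083. In the comparison of control serum with the untreated culture 10 of the 13 stayed within 1.5-fold, and so did 90.5% of all probe sets.

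**Figure D3:**
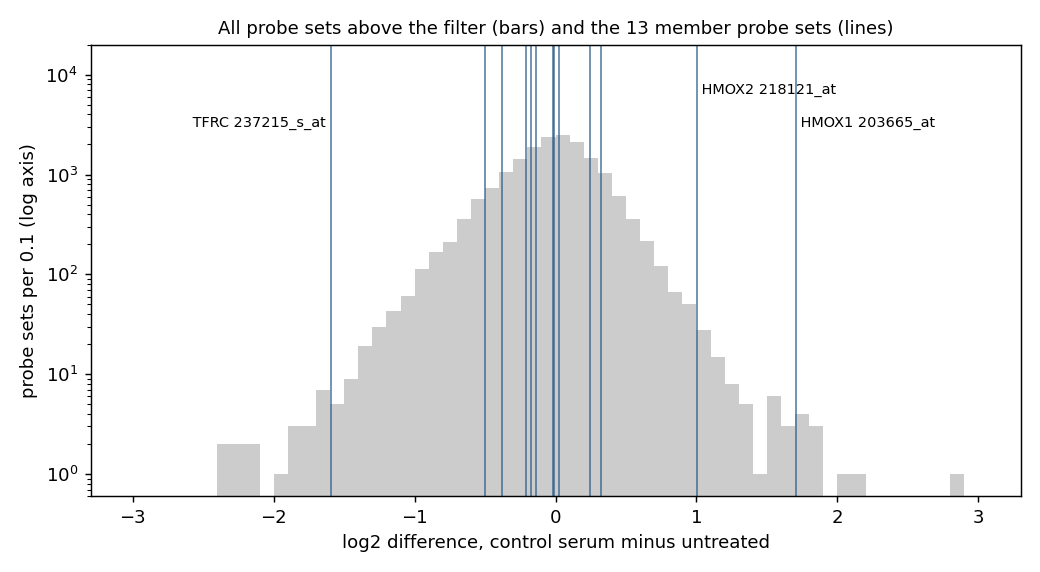
Number of probe sets above the filter in each interval of 0.1 of the log2 difference between control serum and the untreated culture (bars, log axis), with vertical lines at the 13 member probe sets. Most member lines lie in the middle of the distribution, with HMOX1 at 1.71 and TFRC 237215_s_at at -1.59 in its tails.

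With both sera set against the 5 arrays without test serum, 5 of the 13 member probe sets did not overlap. The sera were higher on HMOX1, HMOX2 218121_at and FTL 213187_x_at, and lower on TFRC 208691_at and TFRC 207332_s_at. For FTL the margin was small, with 44075 for control serum against 43322 in the untreated culture. The other probe sets of FTL, HMOX2 and TFRC above the filter overlapped. Over all probe sets above the filter 27.3% did not overlap, 12.5% higher and 14.8% lower. The serum arrays stood apart as a whole, since the SD of log2 differences over probe sets was 0.336 to 0.399 between a serum array and another, 0.302 between the serum arrays, and 0.260 to 0.314 among the 5. The 5 arrays hold different treatments and the sera differ, so neither set consists of replicates.

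Epicatechin and taxifolin are related flavonoids, where taxifolin has a carbonyl group on the central ring that epicatechin lacks, and they are the single pair at the same dose and time. Over the 13 member probe sets epicatechin minus taxifolin ran from -0.24 for BLVRA 203771_s_at to 0.71 for BACH1, and none reached 2-fold, against a background of 0.510%. For HMOX1 it was -0.15, and for TFRC 208691_at -0.06. The SD of this difference over all probe sets was 0.276, and with 1 array each no interval could be given for a difference between these compounds. Catechin, the epimer of epicatechin, and resveratrol, a stilbene, were given at other doses and are only set beside them above.

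Heme synthesis, the opposite arm of the pathway, had 9 of 10 listed genes above the filter and 0 at 2-fold with any compound or serum against its control. Of all 9888 genes 0.455% passed 2-fold with catechin, 0.314% with epicatechin, 0.465% with taxifolin, 0.728% with resveratrol, 1.20% with control serum and 0.536% with pycnogenol serum against control serum. With control serum 7 of these 9 lay below 0, with a median of -0.05 against 0.0076 for all genes. ALAS1, the first and rate-limiting enzyme, which heme itself represses, read 3008 with pycnogenol serum and 2846 with control serum, against 3265 in the untreated culture. Those values lie close to the 2988 to 3376 of the compounds. CLPX, which governs turnover and activation of that enzyme in mitochondria, differed by -0.36 with control serum, and CPOX, coproporphyrinogen oxidase, by 0.15.

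Among 12 genes of heme transport and binding 7 were above the filter, and none passed 2-fold with control serum or in the other comparisons. SLC48A1, a heme importer of the endolysosome, read 474 with pycnogenol serum and 266 with control serum, against 490 in the untreated culture and 366 to 464 with the compounds. Only control serum was low here. HEBP1, a heme-binding protein, read 4251 and 4044 with the sera, against 6229 in the untreated culture and 5085 to 6305 with the compounds, without overlap and with a difference of -0.62 for control serum. FLVCR1, a heme exporter, was slightly higher, at 0.27.

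The list of iron uptake, release and regulation had 16 of 24 genes above the filter and 0 at 2-fold, with a median of 0.03 for control serum, 9 members above 0 and 7 below. SLC11A2, the transporter that moves iron out of endosomes after transferrin uptake, read 2367 with pycnogenol serum and 1638 with control serum, against 2785 in the untreated culture and 2510 to 3044 with the compounds. Like the bright TFRC probe sets it lay below all 5 others with both sera, at -0.77 with control serum. STEAP1, of a family of metalloreductases, differed by 0.32, and NCOA4, the receptor that delivers ferritin to lysosomes, by 0.29.

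Among the factors around BACH1 and NRF2, 6 of 8 were above the filter and 0 passed 2-fold. MAFF, a small MAF protein that pairs with both, read 8473 and 9310 with pycnogenol serum and control serum, against 13359 in the untreated culture and 12313 to 13775 with the compounds. KEAP1, which sends NRF2 for degradation, read 2996 and 2871 with the sera, against 2160 in the untreated culture and 2356 to 2821 with the compounds. Both differed without overlap, at -0.52 and 0.41 with control serum. FBXO22, part of a ubiquitin ligase that removes BACH1, differed by only -0.09, but also without overlap. It read 3680 and 4317 with the sera, against 4593 in the untreated culture and 4531 to 4759 with the compounds. NFE2L2, the gene of NRF2, read 12102 and 15783 with the sera, below the lowest other array at 16080. Of the 6 factors 1 thus lay above and 3 below all arrays without test serum, where 29.6% of all genes did not overlap.

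None of the other NRF2 targets above the filter differed as much as HMOX1 with control serum, whose difference had rank 4 among all genes. Of 12 genes 9 were above the filter and none passed 2-fold with control serum, where 1.20% of all genes did. Their median was 0.12, against 0.0076 for all genes, with 6 above 0 and 3 below. SRXN1, sulfiredoxin, read 5835 and 5882 with pycnogenol serum and control serum, against 3923 in the untreated culture and 3277 to 4550 with the compounds, a difference of 0.58 for control serum. GCLM, the modifier subunit of the enzyme that starts glutathione synthesis, read 18387 and 16445 with the sera, against 12297 in the untreated culture, a difference of 0.42. SLC7A11, the cystine importer and also an ATF4 target, went the other way, with 5982 and 8732 with the sera, against 14856 in the untreated culture and 13735 to 15535 with the compounds. Its difference with control serum was -0.77, and with pycnogenol serum against the untreated culture -1.31, a comparison in which 2.24% of genes passed 2-fold.

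**Figure D4:**
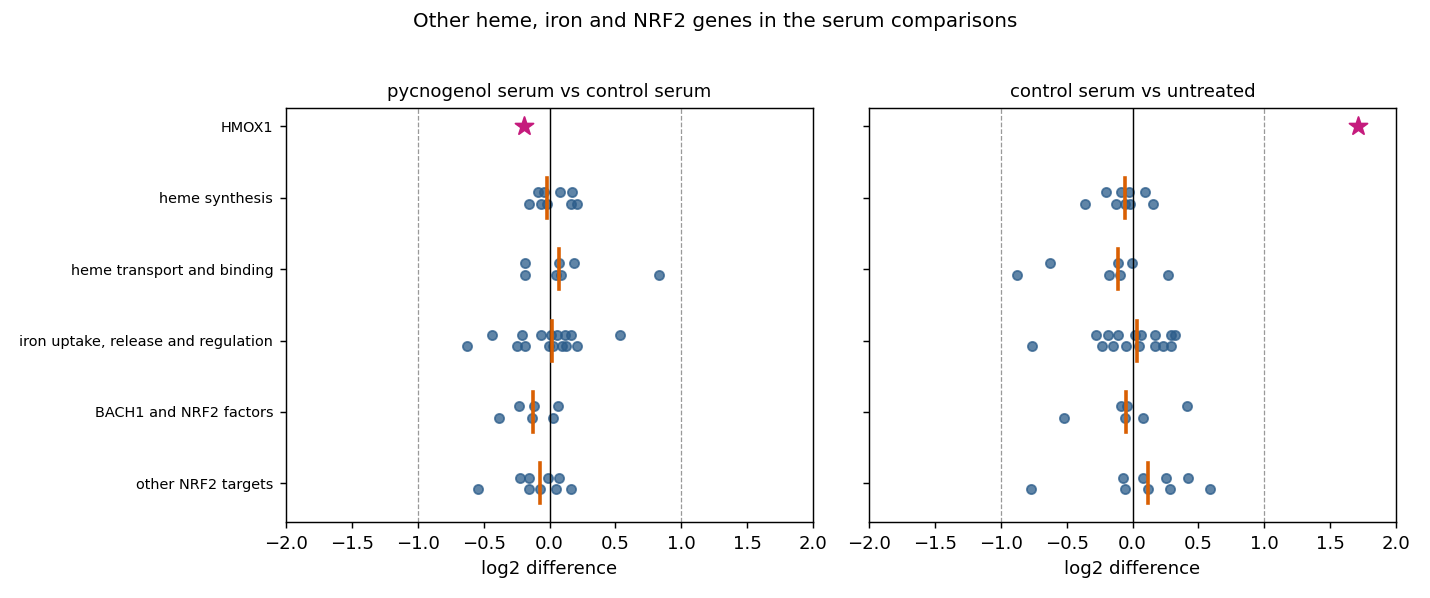
Log2 differences of the 47 other heme, iron and NRF2 genes above the filter in the 2 serum comparisons, with a point per gene, orange bars at each list's median and a star for HMOX1. With control serum the star stands at 1.71, and the points of the 5 lists lie between -0.88 and 0.58.

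Across these 5 lists, 17 of the 47 genes above the filter (36.2%) had both serum arrays apart from the other 5, where 29.6% of all genes did. The 5 genes whose log2 signal followed HMOX1 most closely over the 7 arrays were found among 684 genes above the filter whose values spanned at least 2-fold. They were SKIL, a SMAD corepressor, with a Pearson correlation of 0.984, ID3, an inhibitor of helix-loop-helix factors, with 0.973, CEMIP, a hyaluronan-degrading protein, with 0.973, SPHK1, sphingosine kinase, with 0.962, and SDC1, a syndecan, with 0.960. SKIL read 9224 and 11898 with pycnogenol serum and control serum, against 4619 in the untreated culture and 3390 to 5014 with the compounds. All 5 genes were read on the same 7 arrays and share with HMOX1 the step between the serum arrays and the others, so the correlation is given as a description.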

How the data were processed

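The deposited values are probe set signal intensity on a linear scale, computed by the authors with MAS5 per the submitters' processing notes. The MAS5 version and detection calls were not given in the sources used here. Without the lowest and highest 2% of signals, every array averaged 1000.1. The number of arrays, 1 per group, limits the precision.

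Probe sets were named from the platform annotation, with symbols updated through RefSeq (GRCh38.p14): 41097 had 1 gene, 1801 several and 11777 no entry. The 25th percentile of the signals, 34.9, served as a floor before log2 was taken. The 17655 probe sets whose mean log2 signal reached the median of genes, 8.07, were compared, and each other gene was read from its brightest probe set. A difference of 2-fold was counted. No test was run, as each group held 1 array. The counting was tested on simulated data with less spread than lies between these arrays. That test therefore does not show how often 2-fold is passed at their spread. Named were all members, the 3 genes of each list with the largest absolute difference with control serum and those past 2-fold, and the 5 genes most like HMOX1. NFE2L2 was named in addition, as the gene of NRF2. The members and lists were chosen with earlier results of these data known. Alternatives were quantile normalization, pairwise loess (span 0.3), median centring, floors, filters, probe set choices, thresholds and reference arrays. Python 3.11.15, pandas 2.3.3 and statsmodels 0.14.6 were used.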

Additional observations from a re-analysis of the deposited data

How the results depend on the processing

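The HMOX1 difference between control serum and the untreated culture was 1.71 under quantile normalization, 1.70 under pairwise loess and 1.72 under median centring. It was 1.73 with the mean of the 5 arrays without test serum as reference. The floor and probe set settings could not change it, since HMOX1 has a single probe set whose signals all lie above the floors. The count of 3 member probe sets at 2-fold in the same comparison was 5 without the signal filter. At 3-fold it was 2, with HMOX2 218121_at dropping out. Without _x_at and _s_at probe sets it was also 2, with TFRC 237215_s_at dropping out. The count was 1, HMOX1 alone, with a filter at the 75th percentile, with each gene averaged over its probe sets and with the other reference. For resveratrol the count of 1 was 2 without the filter, and 0 with that stricter filter, without _x_at and _s_at probe sets, with averaged probe sets, at 3-fold and with the other 3 compounds as reference. The counts of 0 were 2 for catechin at 1.5-fold, 3 for epicatechin without the filter and 1 at 1.5-fold, and 1 for taxifolin under each of these. For pycnogenol serum against control serum the 0 was 1 at 1.5-fold and 2 with the untreated array as reference, and for epicatechin against taxifolin, whose alternatives were chosen after seeing the data, it was 3 without the filter and 1 at 1.5-fold. Each probe set added without the filter has a mean signal under 269. The 5 probe sets whose serum arrays did not overlap the others became 6 under quantile normalization and 4 under the stricter filter. Of 378 alternative values for single genes, 352 moved by less than the SD over probe sets and 26 by more, most of them when probe sets were averaged or left out. On the brightest probe sets, among the 6 main comparisons only the HMOX1 difference between control serum and the untreated culture was at 2-fold. That difference kept its sign. Pycnogenol serum against the untreated culture, used here as another reference, gave HMOX1 1.52, also past 2-fold. Some smaller differences changed sign, such as that of HMOX2 with control serum, from -0.14 to 1.00 without _x_at and _s_at probe sets. With 1 array per group no array could be left out of a group. No paired analysis was possible because each group held 1 array and the labels give no replicate numbers. FTL has only _x_at probe sets and gave no value without them.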

Other observations

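Probe sets under the signal filter are given here as values with no comparison. SLC40A1 read 128 with pycnogenol serum and 103 with control serum on 223044_at, against 111 in the untreated culture and 99.5 to 131 with the compounds, and 54.6 to 131 over the 7 arrays on 233123_at. The dim TFRC probe sets 240686_x_at and 237214_at read 4.63 to 88.4 and 4.18 to 50.6. BLVRA read 22.0 to 127 on 229109_s_at and 7.64 to 94.7 on 203772_at. BACH1 read 10.0 to 158 on 234315_at and 3.87 to 49.5 on 234938_at.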
